A study of Mus musculus with 17 samples.

Results

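The 9 genes described here encode the Hedgehog ligands Dhh, Ihh and Shh, the receptor Ptch1, the signal transducer Smo, the extracellular inhibitor Hhip, and the transcription factors Gli1, Gli2 and Gli3. They were taken by name from the array annotation, with no use of their values, and 16 of the 41174 probes on the array belong to them. They make up 9 of 28786 genes. The arrays profiled 17 mammary tumors of FVB mice in which a CUX1 isoform was expressed from mouse mammary tumor virus (MMTV) regulatory sequences, 9 from p75-CUX1 mice (called p75) and 8 from p110-CUX1 mice (called p110). Names such as p75-47 give the transgene and the number of the mouse. No tumor-free mammary tissue and no mouse without a transgene was among them.

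By histology there were 4 adenosquamous carcinomas (p75-47, p75-80, p75-94 and p75-101), 9 solid carcinomas (3 p75 and 6 p110), 2 adenomyoepitheliomas (p75-90 and p110-374), 1 adenocarcinoma (p75-216) and 1 adenoma (p110-98). The study also clustered the tumors by Wnt gene expression, and its clusters are used here as high-Wnt (p75-47, p75-80, p75-94, p110-225 and p110-374), medium-Wnt (p75-90, p75-129, p75-216, p110-98 and p110-121) and low-Wnt (p75-101, p75-150, p75-534, p110-143, p110-314, p110-360 and p110-416). These clusters were read from a figure of the study, are not in the sample labels, and were drawn on Wnt genes measured by the same arrays, so that tests between them are not independent of those arrays. The p110 arrays were all scanned in the year before the p75 arrays, so that transgene and scan year cannot be told apart, and all 4 adenosquamous carcinomas are p75 tumors. Epithelial cells were taken by laser capture, and their RNA was amplified in 2 rounds and hybridized against an amplified mouse reference RNA with the dyes swapped. Values are log2 ratios of tumor over this reference. A probe was taken as measured in a tumor when the scanner software called its signal well above background on all arrays run for that tumor. A ratio below that level gives only an upper limit for the tumor's RNA.

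In Hedgehog signaling, a secreted ligand binds Ptch1 and relieves the inhibition of Smo, and Smo then controls whether the Gli factors activate or repress their targets. Ptch1, Hhip and Gli1 are themselves induced by the pathway in many tissues, so that their transcripts are common readouts of it. In the mammary gland the pathway is known mainly for its repression during duct development, with Gli3 acting as a repressor, and for ligand from epithelium that acts on stroma.

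The last 30 bases of 9 of the probes are printed because the results rest on these 60-base oligonucleotides, and because probes of 1 gene differed in signal. Capitals mark the polyadenylation hexamer AATAAA, which was found in the sense strand of 4.78% of all probes. The hexamer occurred in 2 of the 16 Hedgehog probes, those of Dhh and of the 3′-most Gli3 site. Positions are those of the array annotation on mouse build mm7.
Dhh, A_52_P232637 (chr15:98878292-98878351, minus strand): tttgtggccaaAATAAAgattctagagtga
Shh, A_52_P49014 (chr5:27489898-27489957, minus strand): tgagggaaagattattttgtgaggccaagc
Ptch1, A_51_P127435 (chr13:61333864-61333923, minus strand): catgtcaggtgtgagaggagggactcaaag
Ptch1, A_52_P598605 (chr13:61331255-61331314, minus strand): gatctttgctgatatttataattttgtatc
Smo, A_51_P258766 (chr6:29693371-29693430, plus strand): ttcaagaaccagacaacaggatgccttaga
Smo, A_52_P444864 (chr6:29687728-29688961, plus strand): atgactctgttctccatcaagagcaaccac
Smo, A_51_P392665 (chr6:29670061-29670120, plus strand): ggaatataattgtagtctttaaagctatat
Gli3, A_51_P171288 (chr13:15096631-15096690, plus strand): tcctgcagatgtgtaaAATAAActgtgttc
Gli3, A_51_P410070 (chr13:15093858-15093917, plus strand): ctgaaaaaccctaaggtattctaggggaga

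Over all genes, the share of probes measured ranged from 17.97% to 61.9% between tumors, with a median of 35.1%. The tumor's channel was weakest against the reference on the arrays of p110-98, p110-225 and p110-374, where the reference was 8.72 to 12.01 times as bright at the 95th percentile, against 0.660 to 4.09 times in the other tumors. The epithelial markers Krt8 and Krt18 were measured in 17 of 17 tumors and Krt5 and Krt14 in 16, but so were the fibroblast collagens Col1a1, Col1a2 and Col3a1 in 17 and the endothelial gene Emcn in 16. Of the markers listed, 6 of 7 luminal, 7 of 7 basal and 7 of 7 fibroblast genes were measured in at least 9 tumors, against 3 of 5 endothelial genes. In p110-98, 0 of the 5 endothelial genes were measured. The tumor p110-121 stood apart, with 2 of 7 luminal and 2 of 7 basal markers measured. Its summed luminal signal (log2) was 11.7, against 16.9 to 19.1 in the others, and its summed signal of immune markers was 15.8, against at most 12.4. In bulk samples of this kind, fewer cells of a type and less RNA per cell cannot be told apart. Nothing in the labels says that any mouse gave more than 1 tumor, and each tumor was counted as 1 replicate.

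Most Hedgehog genes were near the limit of detection. Of the 272 pairs of a Hedgehog probe and a tumor, 51 were measured, and 5 of the 16 probes were measured in no tumor. The only probes measured in 12 or more tumors were Smo A_51_P258766 and Gli3 A_51_P171288. One ligand, Dhh, was high in a subset of tumors, and the plot of all 9 genes by tumor shows it against the others.

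**Figure D1:**
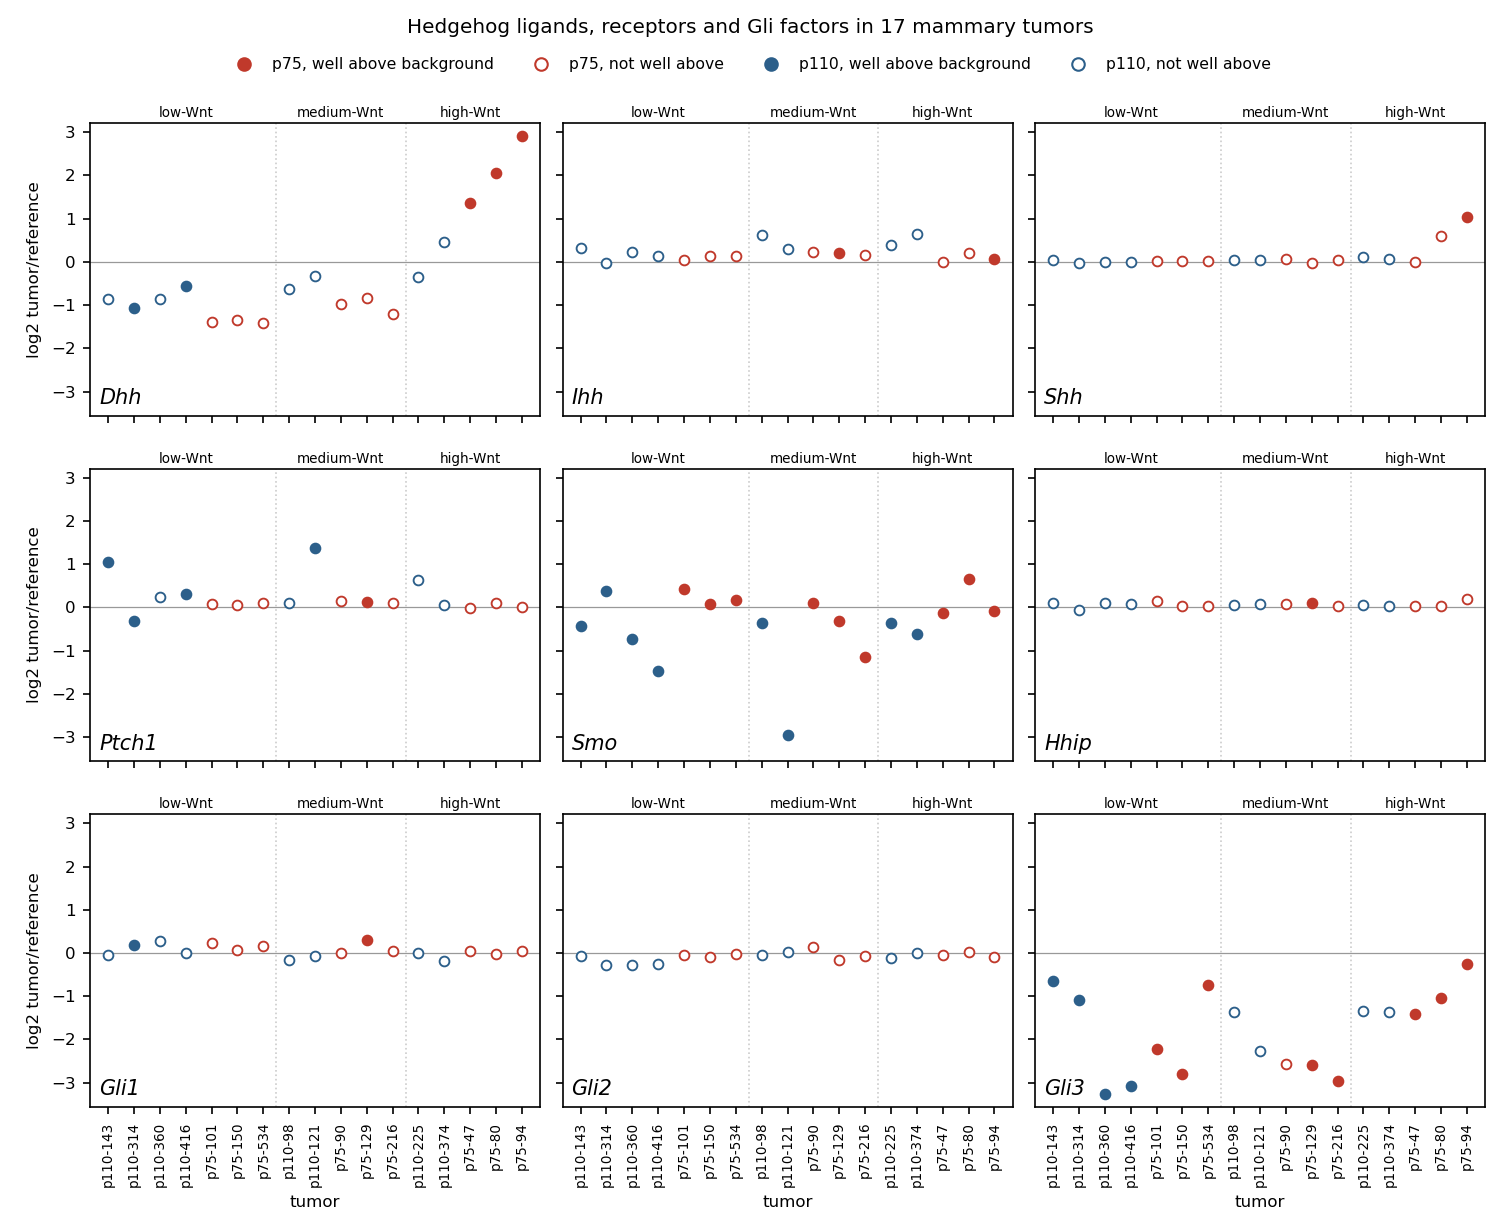
The y axis gives the log2 ratio of tumor over reference for the brightest probe of each Hedgehog gene, and the x axis gives the 17 tumors by Wnt cluster, red for p75 and blue for p110, filled where the probe was measured. Dhh stood at 1.35, 2.06 and 2.90 in p75-47, p75-80 and p75-94, while Ihh, Hhip, Gli1 and Gli2 stayed between -0.29 and 0.65 in every tumor.

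Among the ligands, Dhh, best known from testis and from the Schwann cells of peripheral nerve, was higher in the high-Wnt cluster than in the low-Wnt cluster. Its log2 ratio was 1.35 in p75-47, 2.06 in p75-80, 2.90 in p75-94, 0.45 in p110-374 and -0.34 in p110-225. In the 7 low-Wnt tumors it ranged from -1.41 in p75-534 over a median of -1.06 to -0.56 in p110-416. The lowest high-Wnt ratio was above the highest low-Wnt ratio, but the ratios of p110-225 and p110-374 are upper limits and cannot be ranked against p110-416, which was measured. The medium-Wnt tumors lay between -1.21 in p75-216 and -0.33 in p110-121, just above p110-225 at the upper end. Dhh was thus highest in 3 p75 tumors, all of them adenosquamous carcinomas, and it was measured in these 3, in p110-314 and in p110-416, and in no other tumor. The reference was measured on the arrays of all 17 tumors.

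The mean Dhh ratio was 1.28 ± 1.28 (SD, n = 5) in the high-Wnt cluster against -1.07 ± 0.33 (SD, n = 7) in the low-Wnt cluster, a difference of 2.35 (SE 0.42) on the log2 scale. With limma it passed the threshold over all genes (adjusted p = 0.0385), and the exact two-sided permutation test gave p = 0.00126, the smallest that 792 splits allow, which rests on ranking the upper limits of p110-225 and p110-374 above p110-416. Dhh was the 1 member of 9 called in this comparison, in which 67 of 28786 genes (0.233%) were called. The side of the threshold depended on the setting. Of 31 alternatives, 14 gave a limma adjusted p under 0.05, among them the fit within p75 and the fit without p110-98, p110-225 and p110-374. Both keep as high-Wnt group only the 3 tumors with the highest Dhh, so that their calls are set by the tumors kept. The mean ratio was higher in high-Wnt tumors in all 31, but within p110 tumors the difference is not determined, as described below. Of the 12 fits that left out 1 tumor, those without p75-94, p75-534 or p110-225 passed (limma adjusted p from 0.0129 to 0.0740 over the 12). Without p110-98, p110-225 and p110-374, a choice made after seeing the data, the difference was 3.17, but this leaves as high-Wnt group the 3 tumors with the highest Dhh, all of them p75 adenosquamous carcinomas, and so is given with no test. The summed signal (log2) of 7 basal and myoepithelial markers was 17.8 to 19.1 in high-Wnt and 12.6 to 17.02 in low-Wnt tumors, with no overlap. In the medium-Wnt tumors p75-90 and p110-98, where Dhh was at -0.97 and -0.63 and not measured, it was 18.5 and 18.4, above the 17.9 of p75-47 and the 17.8 of p75-94. None of the 7 was called, and 1 of them had an unadjusted limma p under 0.05. Their median difference was 1.46, and Krt5 at 3.27 (limma adjusted p = 0.441) and Trp63 at 2.19 (limma adjusted p = 0.496) lay above it. The part of basal cells in the Dhh difference was not tested.

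**Figure D2:**
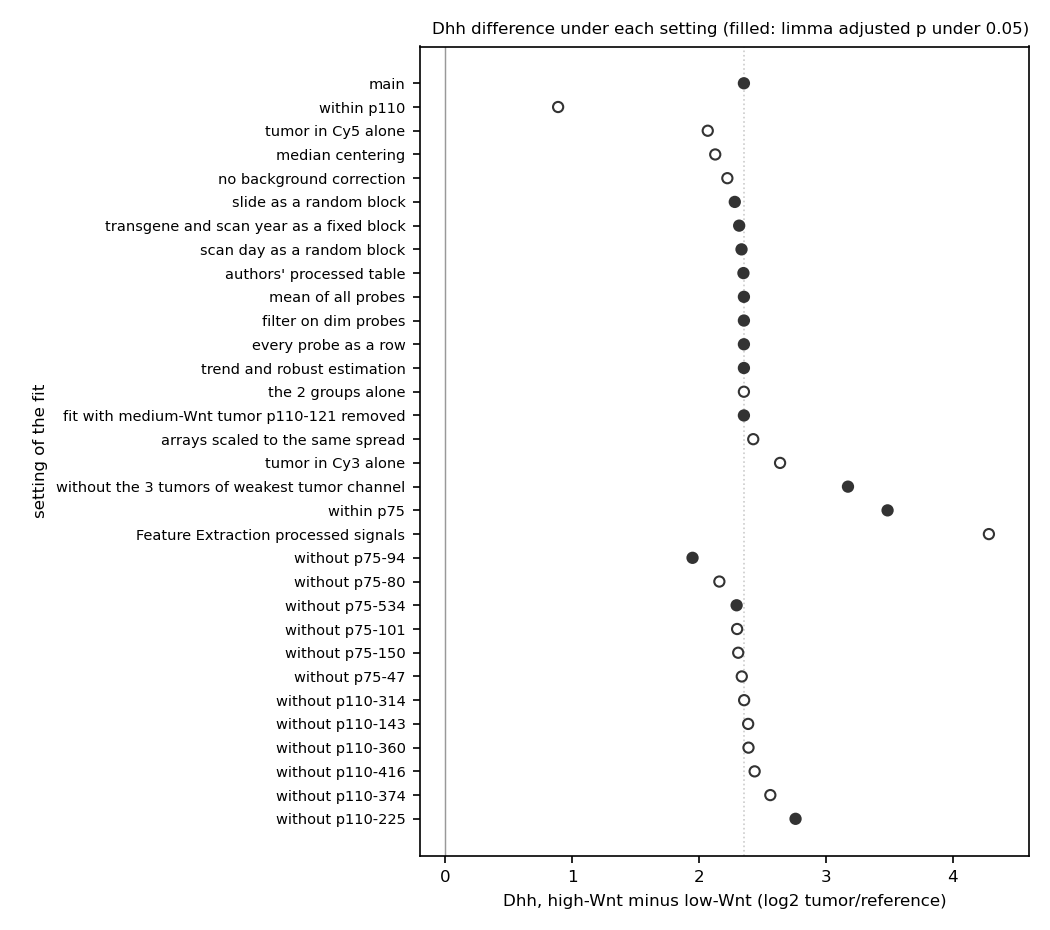
Each point is the Dhh value of the high-Wnt minus the low-Wnt cluster (x axis, log2 tumor over reference) under 1 setting of the fit (y axis), filled where the limma adjusted p was under 0.05. The plotted difference lay between 0.89 and 4.28, and 14 of the 31 alternatives are filled. The lowest, 0.89 within p110 tumors, is not determined, because Dhh was measured in no high-Wnt p110 tumor.

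Among p75 tumors the Dhh difference was 3.49, with 2.10 ± 0.78 (SD, n = 3) for high-Wnt against -1.38 ± 0.04 (SD, n = 3) for low-Wnt. No array of the 3 low-Wnt p75 tumors had Dhh well above background, so that its tumor-channel signal was at least 8.44-fold higher in the high-Wnt p75 tumors (exact two-sided permutation p = 0.1, the smallest possible with 3 against 3). Among p110 tumors the ratios differed by 0.89, between 2 high-Wnt tumors, neither of them measured, and 4 low-Wnt tumors, of which p110-314 and p110-416 were measured. As both high-Wnt values and those of the other low-Wnt tumors are upper limits, the difference is not determined, and no test is given. The difference between the p75 and the p110 effect rests on that value, so that it is not determined either and is given with no test. The arrays of both high-Wnt p110 tumors, p110-225 and p110-374, were among the 3 with the weakest tumor channel, and their part in the difference was not tested beyond the fit without them.

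By histology, Dhh did not separate the groups, because of p75-101. The adenosquamous carcinomas had 1.35, 2.06, 2.90 and, in p75-101, -1.39, a value within the range of the solid carcinomas. The solid carcinomas ranged from -1.41 over a median of -0.85 to -0.33. The difference of 2.08 (SE 0.59) had an adjusted p of 0.843 in limma and an exact permutation p of 0.0126. None of the 28786 genes was called between these histologies (0%), with 1581 (5.49%) at an unadjusted p under 0.05, and Dhh and Shh were the 2 members among them. Without p75-101, the 1 adenosquamous carcinoma in the low-Wnt cluster, the Dhh difference was 2.95 (limma adjusted p = 0.00701), but p75-101 is also the 1 with low Dhh, so that its removal raises the difference by construction. The other 12 fits that left out 1 tumor did not pass, with 1.52 without p75-94 as the lowest difference (limma adjusted p = 0.975).

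Both dyes gave a high Dhh ratio in the 3 tumors where it was high. With the tumor in Cy3 the ratios of p75-47, p75-80 and p75-94 were 1.35, 2.40 and 3.05, and with the tumor in Cy5 they were 1.36, 1.72 and 2.76. The widest gap was in p110-314, with -1.69 in Cy3 and -0.42 in Cy5. Dhh has 1 probe with 1 spot per array, so that no second probe bears on these values.

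Shh, the ligand of limb and neural patterning and of epithelial appendages such as hair, was measured in 1 of the tumors with high Dhh, p75-94. Its ratio was 1.04 there and 0.60 in p75-80, where it was not measured. In the other 15 tumors it lay between -0.03 and 0.10, and p75-47, which had 1.35 for Dhh, had -0.01 for Shh. Shh was measured in p75-94, on 1 of 2 arrays in p75-80, and on no array of another tumor. The 10 spots of the probe on each array differed with a mean SD of 0.14 in p75-94 and 0.09 in p75-80, less than either ratio, and both dyes gave the same direction (1.03 and 1.06 in p75-94, 0.54 and 0.66 in p75-80). The reference was not well above background for Shh on the arrays of any tumor, so that these ratios stand against a background level.

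Between clusters the Shh difference was 0.35 (SE 0.14), from 0.36 ± 0.45 (SD, n = 5) for high-Wnt and 0.01 ± 0.02 (SD, n = 7) for low-Wnt. It missed the threshold (limma adjusted p = 0.315, exact permutation p = 0.0101), and it fell to 0.18 without p75-94. Between adenosquamous and solid carcinomas it was 0.39 (limma adjusted p = 0.875, exact permutation p = 0.0601), and 0.18 without p75-94.

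**Figure D3:**
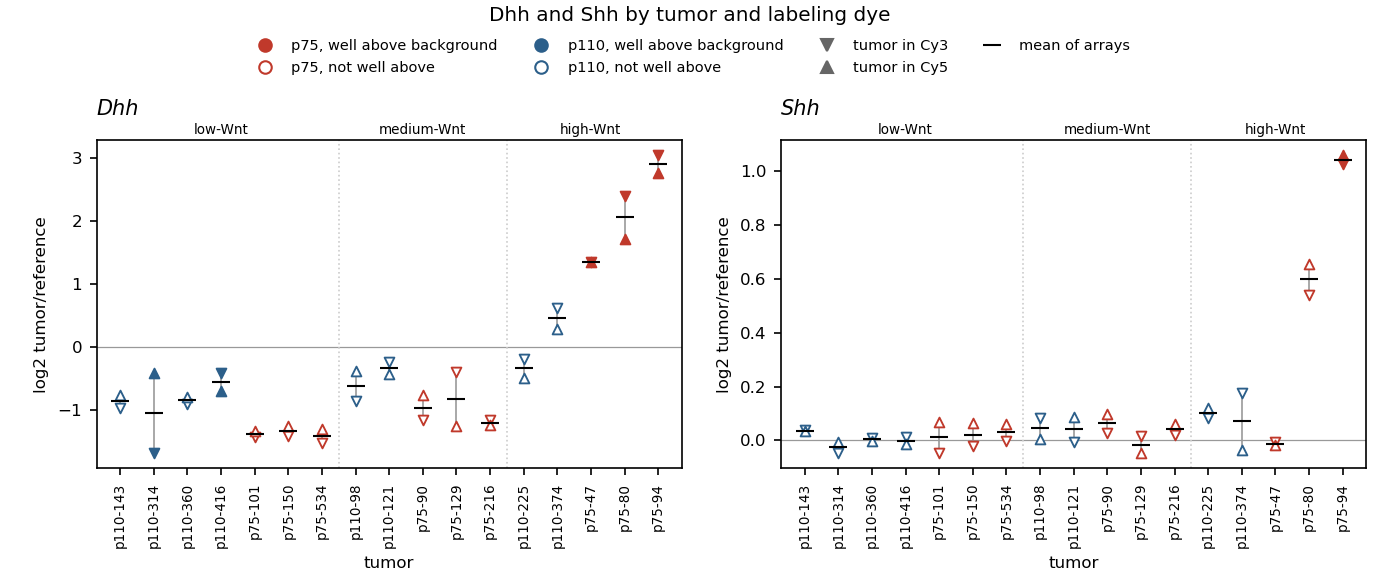
Log2 ratio of tumor over reference (y axis) for Dhh and Shh in each tumor (x axis), with triangles for the arrays that carried the tumor in Cy3 (down) or Cy5 (up), bars for the mean of the arrays, and filled symbols where the probe was measured. For Shh, p75-80 (0.60) and p75-94 (1.04) stood apart from the other 15 tumors, none of which exceeded 0.10.

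Ihh, the ligand of growing cartilage and of several glandular epithelia, did not follow Dhh. Its ratio was 0.01 in p75-47, 0.20 in p75-80 and 0.06 in p75-94, and it was measured in p75-94 and p75-129 alone. The highest ratios, 0.65 in p110-374, 0.62 in p110-98 and 0.39 in p110-225, came from the 3 tumors with the weakest tumor channel, whose arrays never had Ihh well above background. The part of the weak channel in these values was not tested. The second Ihh probe ranged from -0.13 to 0.15. In RefSeq (GRCm38.p6), Ihh lies within 250 kb of Wnt6 and Wnt10a, secreted Wnt ligands that helped to define the clusters. In p75-47, p75-80 and p75-94, where Dhh was high, Wnt6 had 1.25, 2.07 and 2.15. Wnt10a had 2.11 and 2.00 in p75-80 and p75-94, but 0.35 in p75-47. These Wnt values describe the clusters and are no test of them. Of the 14 neighbors of Ihh on the array, no other gene was called between clusters, and Ihh was not (difference 0.12, limma adjusted p = 0.708). For the other 12, Cyp27a1, Prkag3, Cdk5r2, Fev, Cryba2, Cfap65, Nhej1, Slc23a3, Cnppd1, Retreg2, Zfand2b and Abcb6, the differences lay between -0.53 (Cryba2) and 1.31 (Slc23a3).

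The receptor Ptch1, which holds Smo inactive until a ligand binds it, was not measured in the tumors with high Dhh. Its ratio was -0.02 in p75-47, 0.10 in p75-80 and 0.01 in p75-94, and no array of these 3 tumors had the probe well above background. The reference was not measured either on the arrays of p75-80 and p75-94, so that their ratios compare background levels. The highest ratios were in p110 tumors of other clusters, 1.38 in p110-121 and 1.05 in p110-143, which was run on 4 arrays that did not all have the reference well above background, so that its ratio stands against a background level. The reference was measured for 2 of the 17 tumors, p75-47 and p110-121. The tumor p110-121 is the one with few luminal and basal markers and the highest immune sum, whose part in its Ptch1 ratio was not tested. Ptch1 was measured in p110-121 and p110-143, and also in p110-416 (0.32), p75-129 (0.13) and p110-314 (-0.32). The next highest, p110-225 at 0.64, was not measured. In p110-121 and p110-143 Dhh was at -0.33 and -0.87 and not measured.

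These Ptch1 values depended on the dye. In p110-121 the ratio was 0.41 with the tumor in Cy3 and 2.36 with it in Cy5, and in p110-143 it was 0.29 and 1.82. Over all tumors the dyes differed by 0.50 on average, more than the 0.35 for Dhh and the 0.06 for Shh. The second Ptch1 probe, whose mm7 position lies 2609 bases away, was measured in no tumor and gave -0.00 in p110-121 and -0.10 in p110-143.

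No comparison called Ptch1. The high-Wnt minus low-Wnt difference was -0.06 (SE 0.25, limma adjusted p = 0.944), and its sign changed with the tumor in Cy3 alone (0.08), without p110-143 (0.08), with transgene as a block (0.00) and within p110 tumors (0.02). Between p75 tumors, at 0.08 ± 0.05 (SD, n = 9), and p110 tumors, at 0.43 ± 0.56 (SD, n = 8), it was -0.35 (limma adjusted p = 0.417, exact permutation p = 0.0864), and -0.22 without p110-121. No array of an adenosquamous carcinoma had Ptch1 well above background, against 5 of 9 solid carcinomas measured. The difference of -0.36 did not pass (limma adjusted p = 0.875, exact permutation p = 0.214). It was -0.24 without p110-121, and among p75 tumors alone it was -0.06 (exact permutation p = 0.2).

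**Figure D4:**
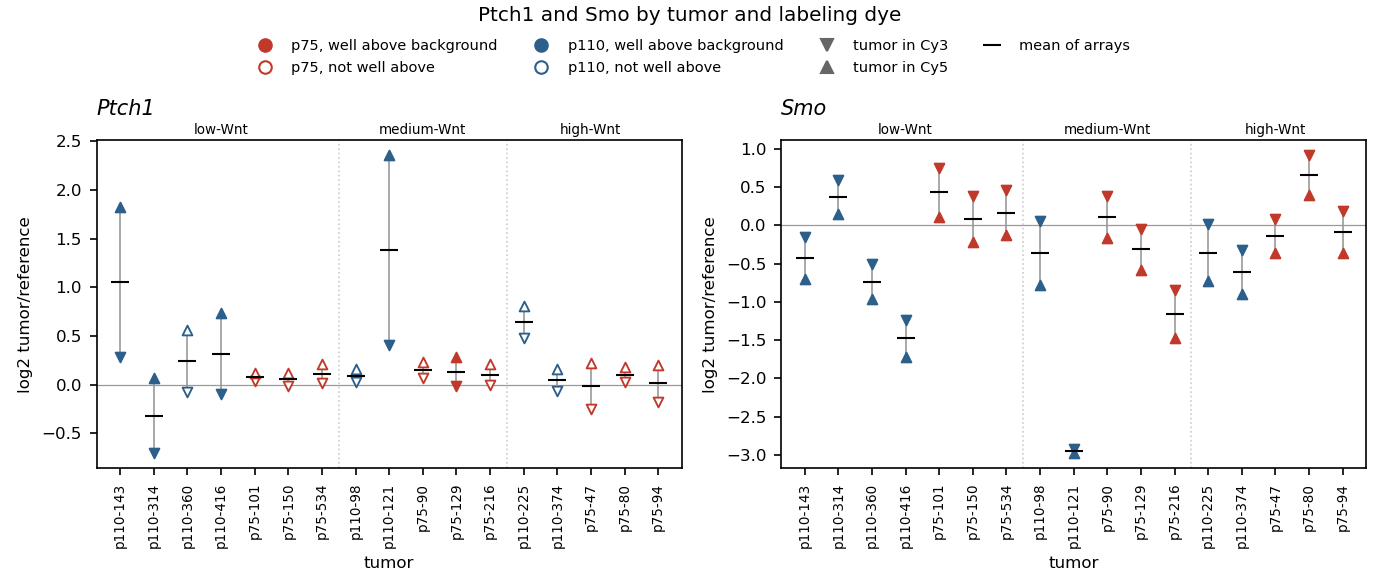
Log2 ratio of tumor over reference (y axis) for Ptch1 and Smo in each tumor (x axis), with symbols as in the plot of Dhh and Shh by dye. The 2 high Ptch1 values, in p110-121 and p110-143, came mostly from arrays with the tumor in Cy5 (2.36 and 1.82), while Smo in p110-121 was low with either dye (-2.92 and -2.97).

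Smo, the transmembrane protein that carries the signal inward, was the Hedgehog gene measured in all 17 tumors, by its probe A_51_P258766. Its ratio ranged from 0.65 in p75-80 to -2.95 in p110-121. In the tumors with high Dhh it was -0.14 (p75-47), 0.65 (p75-80) and -0.08 (p75-94), and p110-416 and p75-216 followed p110-121 as the lowest with -1.48 and -1.16. Without those 3 low tumors, Smo stood between -0.74 and 0.65. The low value of p110-121 held with either dye, although over all tumors the dyes differed by 0.54 on average. The part of its few luminal markers (2 of 7 measured) and its high immune sum in this value was not tested.

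The Smo difference between clusters was 0.12 (SE 0.47), from -0.11 ± 0.47 (SD, n = 5) for high-Wnt and -0.23 ± 0.70 (SD, n = 7) for low-Wnt (limma adjusted p = 0.942). It changed sign within p75 tumors (-0.08), with transgene as a block (-0.03), with median centering (-0.82) and without p75-80 (-0.07) or p110-416 (-0.09). Between p75 and p110 tumors Smo was -0.03 ± 0.51 (SD, n = 9) and -0.82 ± 1.0 (SD, n = 8), which differed by 0.79 (SE 0.36) and missed the threshold (limma adjusted p = 0.347, exact permutation p = 0.0390). It was 0.49 without p110-121, and 2.16 with median centering of the arrays in place of loess, the only alternative under which it passed (limma adjusted p = 0.0291). The other Smo probes did not follow the first. A_52_P444864, whose mm7 position spans 1234 bases and so an intron, ranged from -0.13 to 0.18 and was measured in 3 tumors, and A_51_P392665 was measured in none.

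The inhibitor Hhip, which binds ligand at the cell surface, was measured in p75-129 alone. Its ratio lay between -0.05 and 0.21 in all tumors, with 0.03, 0.04 and 0.21 in p75-47, p75-80 and p75-94. At this signal no difference between groups was detectable (limma adjusted p from 0.842 to 0.936 over the 3 comparisons).

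Gli1, the activating factor whose own transcript is a readout of the pathway, was measured in p75-129 (0.30) and p110-314 (0.19). Its ratio was 0.05, -0.01 and 0.05 in p75-47, p75-80 and p75-94, and the highest value, 0.30, was in a medium-Wnt tumor with Dhh at -0.83. In these 3 tumors neither the tumor nor the reference was measured, so that the ratios compare 2 background levels. Of their arrays, 1 of 2 in p75-94 had Gli1 well above background. Between clusters the Gli1 ratio was lower in high-Wnt tumors by 0.15, a difference that missed the threshold (limma adjusted p = 0.492, exact permutation p = 0.0455). It was measured in 0 of 5 high-Wnt and 1 of 7 low-Wnt tumors, so that this difference rests mostly on background levels and its direction is not determined. The 3 usual pathway readouts, Ptch1, Hhip and Gli1, were measured in 5, 1 and 2 of the 17 tumors, none of these p75-47, p75-80 or p75-94.

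Gli2, the main activator downstream of Smo, was not measured in any tumor by the probe that was brighter over both channels, which ranged from -0.29 to 0.13. The other probe, A_52_P564620, was measured in p75-94 (0.34) and p75-129 (-0.09). By this probe the clusters did not overlap, with means of 0.20 in high-Wnt and -0.01 in low-Wnt tumors, and the difference of 0.21 did not pass in the fit over all probes (limma adjusted p = 0.287). Its highest value, 0.41 in p110-374, was not measured. The high values came from 1 dye, with 0.73 and -0.04 in p75-94 and 0.81 and 0.00457 in p110-374 for the tumor in Cy3 and Cy5, and in Cy5 the clusters overlapped.

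Gli3, the main repressor, was lower in the tumors than in the reference in all 17 cases. Its probe A_51_P171288 was measured in 12 tumors, and its ratio ranged from -3.25 in p110-360 to -0.25 in p75-94. The tumors with high Dhh had -1.42 (p75-47), -1.03 (p75-80) and -0.25 (p75-94). The low-Wnt tumors spanned nearly the whole range, with p110-143 at -0.65, p75-534 at -0.73 and p110-314 at -1.08 against p110-416 at -3.08 and p110-360 at -3.25. Between clusters Gli3 was higher in high-Wnt tumors by 0.89 (SE 0.48), with -1.08 ± 0.49 (SD, n = 5) against -1.97 ± 1.13 (SD, n = 7), and did not pass (limma adjusted p = 0.492, exact permutation p = 0.135). It was measured in 3 of the 5 and 7 of the 7, and the values of p110-225 (-1.34) and p110-374 (-1.37) are upper limits. The difference of the ratios kept its sign in all 31 alternatives (0.12 to 1.11). Within p110 tumors, however, both high-Wnt values are upper limits, so that its direction there is not determined. Between p75 and p110 tumors it was -0.04, and of 32 alternatives 15 turned its sign, none of them past the threshold.

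The second Gli3 probe, 2773 bases upstream on mm7 and designed on the RefSeq transcript, did not show the low ratios. It lay between -0.01 and 0.44 and was not well above background in any tumor or in the reference on the arrays of any tumor. The 2 sequences are those printed above, and the one measured carries the hexamer AATAAA near its 3′ end. Among all probes, 40.0% of those with the hexamer and 32.9% of those without were measured in at least 9 tumors, and 33.0% and 27.8% were measured in none. The part of probe position in the Gli3 values was not tested.

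**Figure D5:**
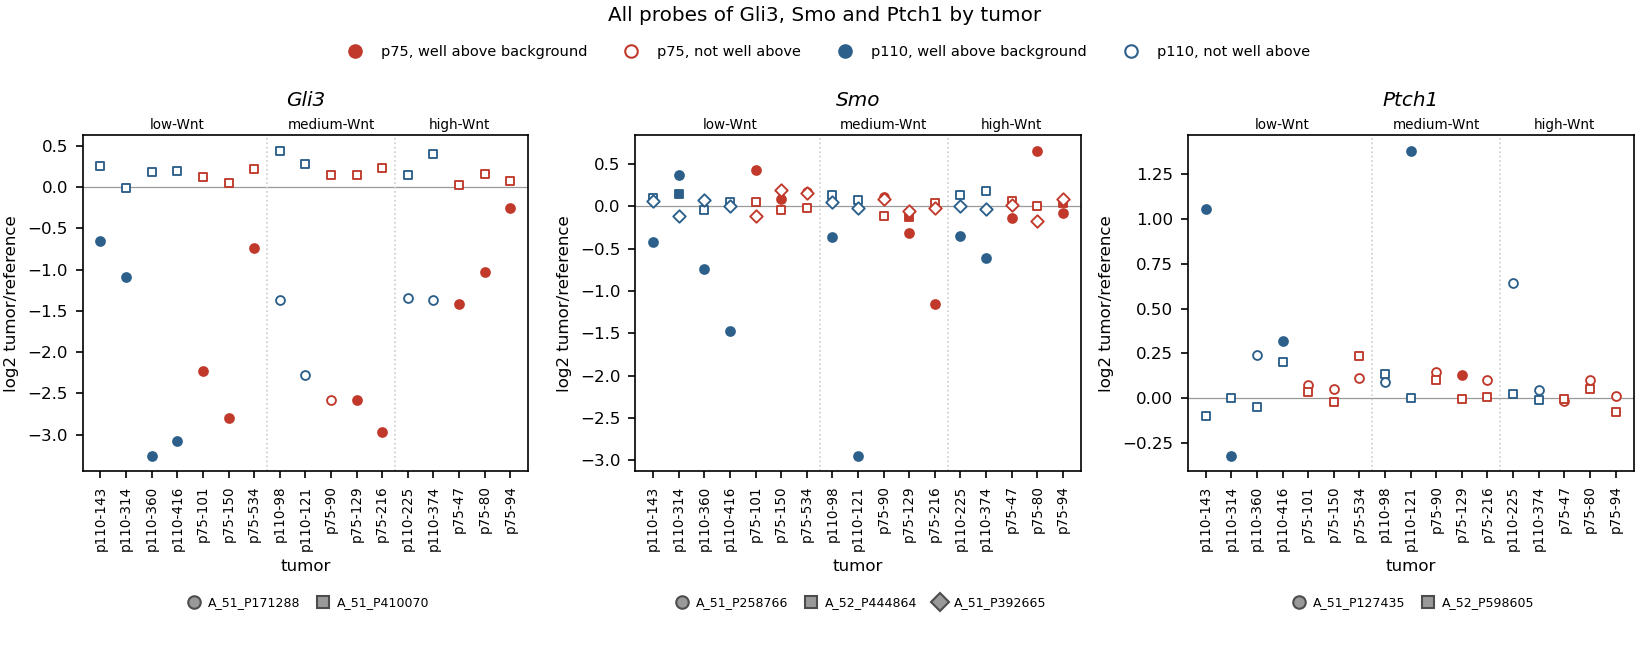
Log2 ratio of tumor over reference (y axis) for every probe of Gli3, Smo and Ptch1 in each tumor (x axis), red for p75 and blue for p110, filled where the probe was measured, with a marker shape for each probe. The Gli3 probe A_51_P171288 lay below 0 in all 17 tumors, while A_51_P410070 stayed between -0.01 and 0.44 and was measured in none.

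For the 2 members measured in at least 9 tumors, the genes of most similar profile were sought among 11307 genes measured as often. Smo was most like Rpl39 (Pearson r = 0.83 over 17 tumors), a ribosomal protein gene, Orc6 (r = 0.82), a subunit of the origin recognition complex, and Bmpr1a (r = 0.81), a BMP receptor. Gli3 was most like Enc1 (r = 0.77), Slc19a1 (r = 0.75), the reduced folate carrier, and Fancb (r = 0.75), of the Fanconi anemia complex. These are the highest of many values over tumors that share arrays, reference and dyes with each other, and they are given as a description.

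Of 42 other genes of the pathway on the array, none passed in any of the 3 comparisons by limma, with 3 between clusters, 3 between histologies and 9 between transgenes at an unadjusted p under 0.05. Over all genes these shares were 12.04%, 5.49% and 13.8%. The median difference between clusters was 0.03, against 0.02 over all genes. Among the 26 measured in at least 9 tumors, the largest differences were 1.06 for Csnk1e, a casein kinase (limma adjusted p = 0.394), -0.95 for Gpc3, a glypican that binds ligand (limma adjusted p = 0.589), 0.73 for Efcab7 of the ciliary Evc complex (limma adjusted p = 0.451) and 0.70 for Ift172, of intraflagellar transport (limma adjusted p = 0.396). Single tumors moved Gpc3 to -0.62 without p110-360 and -1.42 without p110-225, and Ift172 to 0.46 without p110-374.

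Of 15 genes known as Hedgehog targets in 1 tissue or another, 2 passed between clusters, Ccnd2 and Foxf2, both with higher ratios in high-Wnt tumors. Over all genes 67 of 28786 (0.233%) passed. At an unadjusted limma p under 0.05 there were 3 of the 15, against 12.04% of all genes. Ccnd2, a D-type cyclin, stood at 0.07 ± 0.91 (SD, n = 5) for high-Wnt against -3.01 ± 0.78 (SD, n = 7) for low-Wnt, a log2 difference of 3.08 (SE 0.46, limma adjusted p = 0.0209), and was measured in 4 of 5 and 3 of 7. Its ratio was -0.78, 1.16 and 0.91 in p75-47, p75-80 and p75-94. Foxf2, a forkhead factor of mesenchyme, passed with a difference of 1.71 (limma adjusted p = 0.0471) but was measured in no tumor, so that its ratios are upper limits, the highest of them (-1.70, -1.92 and -2.09) in p110-374, p110-98 and p110-225. Without these 3 tumors of weak channel, Foxf2 did not pass (difference 1.34, limma adjusted p = 0.180). Leaving out 1 tumor kept the call of Ccnd2 in 12 of 12 fits and that of Foxf2 in 2 of 12, and 7 of 19 and 10 of 18 other alternatives lost them. The median difference over the 15 genes was 0.33, against 0.02 over all genes. The lists of cell type markers had medians from -1.33 (adipocyte) to 1.46 (basal and myoepithelial), with 0.33 for fibroblast markers.

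The other targets gave no call. Of those measured in at least 9 tumors, the largest differences after Ccnd2 were -1.07 for Sox9 (limma adjusted p = 0.770), -0.87 for Sfrp1, a Wnt antagonist (limma adjusted p = 0.763), and 0.36 for Ccnd1 (limma adjusted p = 0.860). Single tumors moved these values, Sox9 to -0.39 without p75-94 and -1.95 without p110-416, Sfrp1 to -0.49 without p110-374 and -1.33 without p110-416, and Ccnd1 to 0.0875 without p75-47 and 0.80 without p110-314. Among 8 zinc finger genes related to the Gli family, Glis1, which the study singled out from these same tumors, was called (difference 1.53, limma adjusted p = 0.0491) and was measured in 4 tumors. This call held in 1 of the 12 fits that left out a tumor (adjusted p from 0.0422 to 0.131 in limma) and was lost in 10 of 18 other alternatives. Zic1 to Zic5, Glis2 and Glis3 were not called.

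Between p75 and p110 tumors, 147 of 28786 genes (0.511%) were called and none of the 9 Hedgehog genes. At an unadjusted p under 0.05 in limma there were 3974 genes and 2 members, Smo and Ihh. Dhh differed by 0.43 (SE 0.60, limma adjusted p = 0.7998), with 3 p75 tumors above all p110 tumors and the other 6 in or below the lower part of the p110 range. The p75 values of these 6 were -0.83 or less in p75-90, p75-101, p75-129, p75-150, p75-216 and p75-534, and the p110 values ran from -1.06 to 0.45. Without p75-94 the difference was 0.0560. Among solid carcinomas alone the Dhh difference was -0.53 (exact permutation p = 0.0595).

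Markers of endothelium and of squamous epithelium were read in the same tumors. The summed tumor-channel signal (log2) of 5 endothelial markers was 9.77 in p75-47, 12.4 in p75-80 and 10.8 in p75-94, and 9.29 to 12.7 in the others. The summed signal of 5 squamous markers was 12.6 in p75-94 and 12.3 in p75-80, with 4 of the 5 measured in each, against 10.0 with 1 measured in p75-47, where Shh was -0.01. In the other 14 tumors it was at most 10.9, except for 12.5 in p75-129, where Shh was -0.0164. Of the 5 squamous markers, 4 had an unadjusted limma p under 0.05 between clusters, none of them past the threshold over all genes, and Ivl was measured in no tumor. The part of endothelial and squamous cells in the Dhh and Shh values was not tested.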

How the data were processed

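RNA of microdissected tumor cells was compared with a common reference on 38 2-color Agilent arrays, 2 or 4 per tumor. The deposited scanner files hold spot intensity and local background as read by the authors in Feature Extraction 9.5.3.1, before any normalization. The table of log2 ratios deposited by the authors equals normexp correction with an offset of 50, loess and averaging of arrays, to within 4.98e-08, as was checked. The scanner files were put through these steps again with R 4.3.3 and limma 3.58.1 (statmod 1.5.0, matplotlib 3.10.9), leaving out controls and outlier spots (0.545%) and averaging spots of a probe, which moved member ratios from that table by at most 0.103. The offset pulls ratios of dim probes toward 0, and no spot of a Hedgehog probe was saturated.

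Probes took the RefSeq symbol of their accession where it was listed (22951 of 41174), and otherwise the name in the files. The probe brightest over both channels stood for each of 28786 genes. Groups were compared by lmFit and eBayes over all genes, Benjamini-Hochberg adjusted p under 0.05, with all 17 tumors in each fit, and single genes by exact two-sided permutation of the difference in means. The main tests rest on tumors as replicates, and the number of arrays limits the precision. A gene that no array of a group had well above background was given as a bound against the lowest signals well above background. In a simulation of the cluster comparison with 28564 genes, 91% of 200 genes changed by 3 on the log2 scale were recovered. This change is larger than the cluster difference of any of the 9 members, of which Dhh at 2.35 was the largest. The simulation therefore does not tell how often differences of their size would be found.

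The members, the gene lists and the tests were chosen with earlier results of these data known. All 9 members and the genes within 250 kb of Ihh were to be named, with called genes of the other lists, the 4 largest differences among their genes measured in at least 9 tumors, and the 3 genes most like each member measured as often. Alternatives were other background corrections, normalizations, probe rules and dyes, blocks for scan day, slide and transgene, subsets of tumors and each tumor left out. The markers of Schwann cells and nerve are not reported here.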

Additional observations from a re-analysis of the deposited data

Results flagged for a closer look

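A value was picked out where it stood far from the other tumors of its group by Dixon's criterion, in 7 of 63 sets of 4 to 10 tumors, and chance alone flags about 1 in 20. Ptch1 gave 2 of these, 1.38 in p110-121 among the medium-Wnt tumors (next 0.15), which was measured, and 0.64 in p110-225 among the high-Wnt tumors (next 0.10), which was not. The other 5 were small ratios that were not well above background. They were Shh at -0.0164 in p75-129 among the medium-Wnt tumors, Hhip at 0.21 in p75-94 among the high-Wnt tumors, Hhip at -0.0489 in p110-314 among both the solid carcinomas and the p110 tumors, and Gli1 at -0.173 in p110-374 among the high-Wnt tumors. Dhh met the criterion in no group.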

How the results depend on the processing

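In the cluster comparison, 67 genes and 1 member (Dhh) were called. Without background correction, with median centering and with arrays scaled to the same spread 0 genes and 0 members were called, and with Feature Extraction signals, Cy5 alone and Cy3 alone 5, 7 and 9 genes and 0 members. The 2 groups alone gave 143 genes and within p110 371, with 0 members in both. Every probe as a row gave 40 genes, trend and robust estimation 16 and transgene as a block 125, each with Dhh called. Dhh was also called without p110-121, a fit chosen after seeing the data, which gave 115 genes. The fit without the 3 tumors of weakest channel, likewise chosen, gave 40 genes, and the fit within p75 gave 10. Both keep as high-Wnt group only the 3 tumors with the highest Dhh, so that their Dhh calls are set by which tumors they keep. Leaving out 1 tumor gave 7 to 93 genes and 0 to 1 members. Ptch1 and Smo changed sign as reported (Ptch1 0.0804, 0.00222 and 0.0227, Smo -0.82, -0.0277 and -0.0819, and leaving out 1 tumor Ptch1 from -0.183 to 0.0780 and Smo from -0.0878 to 0.246), as did Ift172 (-0.23) and Ccnd1 (-0.45) with median centering, Ccnd1 with scaled arrays (-0.21), and Sox9 (1.06) and Ccnd1 (-0.65) within p110. Between histologies Feature Extraction signals gave 1 gene, and leaving out 1 tumor 0 to 31 genes and 0 to 1 members. Between transgenes 147 genes were called (59 higher in p75), and no background correction gave 221, median centering 1206 (1123 higher) with 1 member (Smo), scaled arrays 86 (44 higher), Feature Extraction signals 312 (162 higher), Cy5 alone 330, Cy3 alone 72, the fit without the 3 weak tumors 88, solid carcinomas alone 0, and leaving out 1 tumor 49 to 1096. Gli3 turned to 0.0157 without background correction, 1.07 with median centering, 0.16 scaled, 0.79 with Feature Extraction signals, 0.23 without the 3 weak tumors and, leaving out 1 tumor, between -0.25 and 0.13. Among solid carcinomas alone Dhh was -0.53 and Shh -0.0147. The cause of these changes was not tested. No paired analysis was possible because the numbers in the labels name mice and the groups share none.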
